A study of Mus musculus with 9 samples.

Results

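The genes described are 10 factors that cut, tail and bind the 3′ end of mRNA, measured in mouse testis. They were chosen by gene symbol, and each symbol matched 1 row, so that they make up 10 of the 38685 rows in the deposited table. They comprise the canonical poly(A) polymerases Papola, Papolb and Papolg, the cleavage stimulation subunits Cstf2 and Cstf2t, the cleavage factor I subunits Cpsf6 and Nudt21, the cytoplasmic poly(A)-binding protein Pabpc1, and its interactors Paip1 and Paip2.

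Testis RNA from C57BL/6 males of 3 genotypes was sequenced, with 3 libraries per genotype and no treatment. Prm2+/+ males are wild type, Prm2+/- males carry 1 edited allele of protamine 2, and Prm2-/- males carry 2. Protamine 2 replaces histones in the condensing spermatid nucleus, and the mutant mouse line was made by CRISPR/Cas9 gene editing. The study states 3 biological replicates per genotype, and the sources used here give no age of the males. The libraries were made with QuantSeq, which primes on the poly(A) tail and reads the transcript near its 3′ end. All values below are normalized counts, that is, gene counts divided by 1 scaling factor per library.

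When an mRNA is made, a cleavage complex recognizes a short signal near its end, cuts the transcript, and a poly(A) polymerase adds the tail. Poly(A)-binding proteins then coat the tail and tie it to the translation machinery. Germ cells are known for their own forms of this machinery. Papolb and Cstf2t are intronless copies of Papola and Cstf2 that are used in male germ cells, and spermatids store many mRNAs with long tails before these are translated.

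The signal that the cleavage complex reads is shown for the members whose annotated 3′ end holds it, since each transcript needs a tail. QuantSeq reads lie near the 3′ end that is used in the testis. Whether this is the annotated end was not tested. In the GENCODE M21 annotation (GRCm38), AATAAA was looked for on the transcript strand in the last 50 bases of 1 transcript per gene. It was found in 7 members, namely Papolb, Cstf2, Cpsf6, Nudt21, Pabpc1, Paip1 and Paip2. The windows of 30 bases given for 6 of them lie at chr5:142525849-142525878 on the minus strand (Papolb), chrX:134086790-134086819 on the plus strand (Cstf2), chr10:117344673-117344702 on the minus strand (Cpsf6), chr8:94015500-94015529 on the minus strand (Nudt21), chr15:36595664-36595693 on the minus strand (Pabpc1) and chr13:119458171-119458200 on the plus strand (Paip1). They are written 5′ to 3′ as DNA, with the hexamer in capitals.
Papolb: aaacacaataaaAATAAAtgccaaacaacc
Cstf2: ctgtcgtggattcAATAAAtattttaaaag
Cpsf6: tcttgtattgaaAATAAAaacaaagttttg
Nudt21: cactgttatttcAATAAAaatatttaaaac
Pabpc1: aattcttgctttAATAAAaattccttaaac
Paip1: ttagaatttgaaAATAAAacttagtttgtt

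The hexamer began 17 to 36 bases before the annotated end in these 7 genes. Neither AATAAA nor the common variant ATTAAA lay in the window of Papola, Papolg or Cstf2t. Among 21901 protein-coding genes, 59.2% held AATAAA in the same window, 12.96% held ATTAAA without it, and 27.8% held neither. The transcripts were not chosen alike. For members it was the longest coding transcript marked as principal, and for the 21901 genes the longest coding transcript. TGTA, the letters that cleavage factor I binds as RNA, was present in the last 100 bases of 8 members, with none in Cstf2t and Pabpc1, and in 50.9% of protein-coding genes. The GC content of the last 300 bases lay between 27.7% in Paip1 and 44.3% in Papola.

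Papolb (ENSMUSG00000074817) is a single exon at chr5:142525838-142530076 and lies inside an intron of Radil on the same strand. Cstf2t (ENSMUSG00000053536) is a single exon at chr19:31082837-31087069 and lies inside an intron of Prkg1 on the opposite strand. Their parents are spread over many exons, Papola (ENSMUSG00000021111) over 22 exons at chr12:105784694-105838944 and Cstf2 (ENSMUSG00000031256) over 14 exons at chrX:134059187-134086819. The coding sequences of Papola and Papolb were 85.2% identical, and those of Cstf2 and Cstf2t 75.7%. Papolg (ENSMUSG00000020273, chr11:23862646-23895253) was 70.9% identical to Papola and 71.6% to Papolb.

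Cpsf6 (ENSMUSG00000055531) lies at chr10:117344673-117380015, Nudt21 (ENSMUSG00000031754) at chr8:94015496-94037031, Pabpc1 (ENSMUSG00000022283) at chr15:36595661-36609668, Paip1 (ENSMUSG00000025451) at chr13:119428601-119458218 and Paip2 (ENSMUSG00000037058) at chr18:35598617-35617187. None (0) of the 451 windows of 50 bases in the last 500 bases of any member occurred exactly in an annotated transcript of another gene. An exact read of that length from there would separate annotated near copies. Near matches, other 3′ ends and the rest of the genome were not searched. Overlapping annotation limits 2 members, since Cstf2 shares 399 exonic bases with Nox1 and Papolg 91 with the antisense gene Gm12061.

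The counts recovered from the table summed to between 3629929 and 4490411 per library. Prm2 itself was not lower in the libraries labelled Prm2-/- than in Prm2+/+ (log2 fold change (LFC) 0.20, 95% interval -0.10 to 0.50), so its level does not check the labels. Summed markers of spermatocytes (7 genes) lay between 9589 and 10583 normalized counts in all libraries, and those of elongating spermatids (8 genes) between 208961 and 228401. Of 4 epididymal markers, Lcn5 and Lcn8 were at 0 throughout, and the sum of the 4, then from Defb20 and Rnase10, was 34.3 to 39.0 in Prm2+/+, 24.7 to 33.8 in Prm2+/- and 18.3 to 32.7 in Prm2-/-. Whether RNA of epididymis has a part in the results was not tested.

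Replicate 3 of Prm2+/+ stood apart from the other libraries. In it, 14.5% of the 14893 tested genes lay more than 1 on the log2 scale below the median of the other 8 libraries, while the other libraries had 3.16% to 5.28%. Of the 10 members, 4 lay that far below in this library, and 0 did in any other. In this library 5 members had their lowest value of the 9 libraries beside 24.8% of all tested genes. The distance of this library changed with the GC content of the 3′ end, since its median was -0.23 in the fifth of genes with the lowest GC content and 0.29 in the fifth with the highest (7763 genes with a mean above 50). Its summed Sertoli markers (7 genes) were 3912 normalized counts, the highest of the 9 libraries, beside 2416 in the lowest Prm2+/+ library, 2456 to 2573 in Prm2+/- and 2831 to 3546 in Prm2-/-. Its summed markers of spermatocytes (9589) and of macrophages (5 genes, 128) were the lowest of the 9 libraries. The part of these properties in the members' values was not tested. Results that rest on this library are given with and without it.

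**Figure D1:**
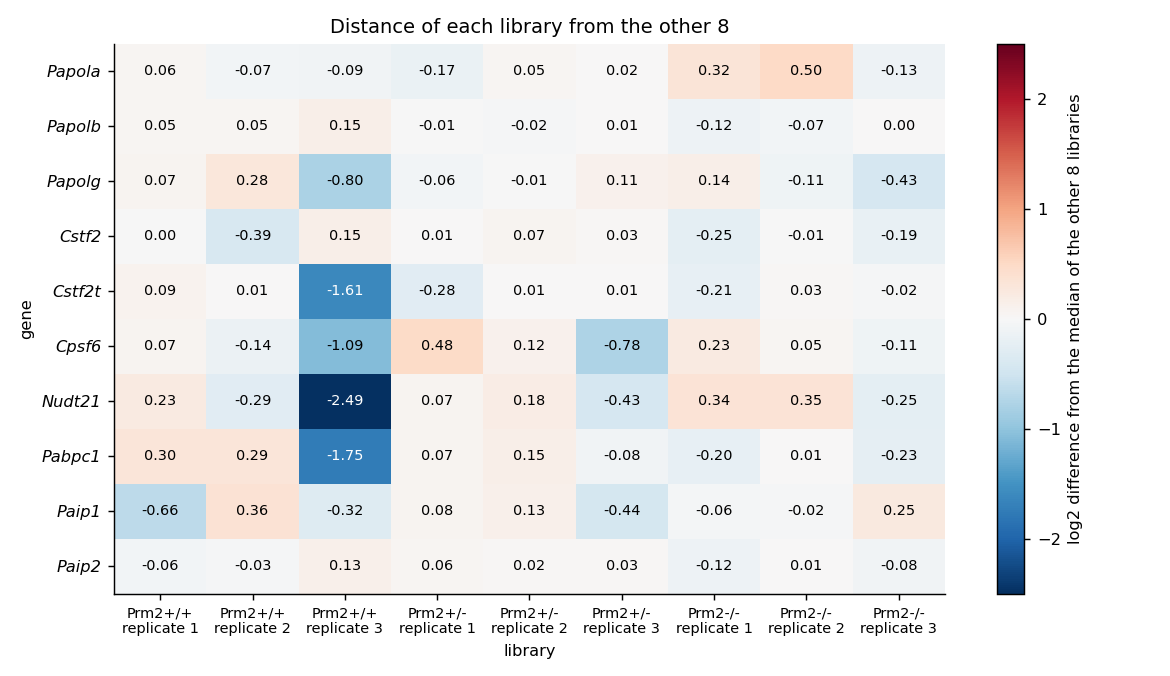
Difference (log2) of each library from the median of the other 8 libraries for the 10 genes, with libraries in columns and genes in rows. Replicate 3 of Prm2+/+ holds the 4 values below -1, from -1.09 in Cpsf6 to -2.49 in Nudt21.

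For each gene, limma was fitted to the log2-transformed normalized counts (with 1 added), using all 9 libraries. A gene was called at an adjusted p-value (Benjamini-Hochberg over all tested genes) under 0.05 and an LFC beyond 0.5. All 10 members passed the filter on low counts. No member (0 of 10) was called between Prm2-/- and Prm2+/+, where 0.181% of all tested genes were. Likewise 0 were called between Prm2+/- and Prm2+/+ (0.0806% of genes) and 0 between Prm2-/- and Prm2+/- (0.175% of genes). edgeR and DESeq2 also called 0 members in each comparison. In the same order, edgeR called 0.161%, 0.0671% and 0.154% of all tested genes, and DESeq2 0.88%, 0.396% and 0.739%. At an unadjusted p under 0.05, limma had 1 member in the first comparison, where 7.33% of genes passed, and 0 in the other comparisons, where 4.24% and 5.44% passed. The 10 members had a median LFC of 0.26 between Prm2-/- and Prm2+/+, beside 0.02 over all tested genes, and this became 0.01 without replicate 3 of Prm2+/+.

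**Figure D2:**
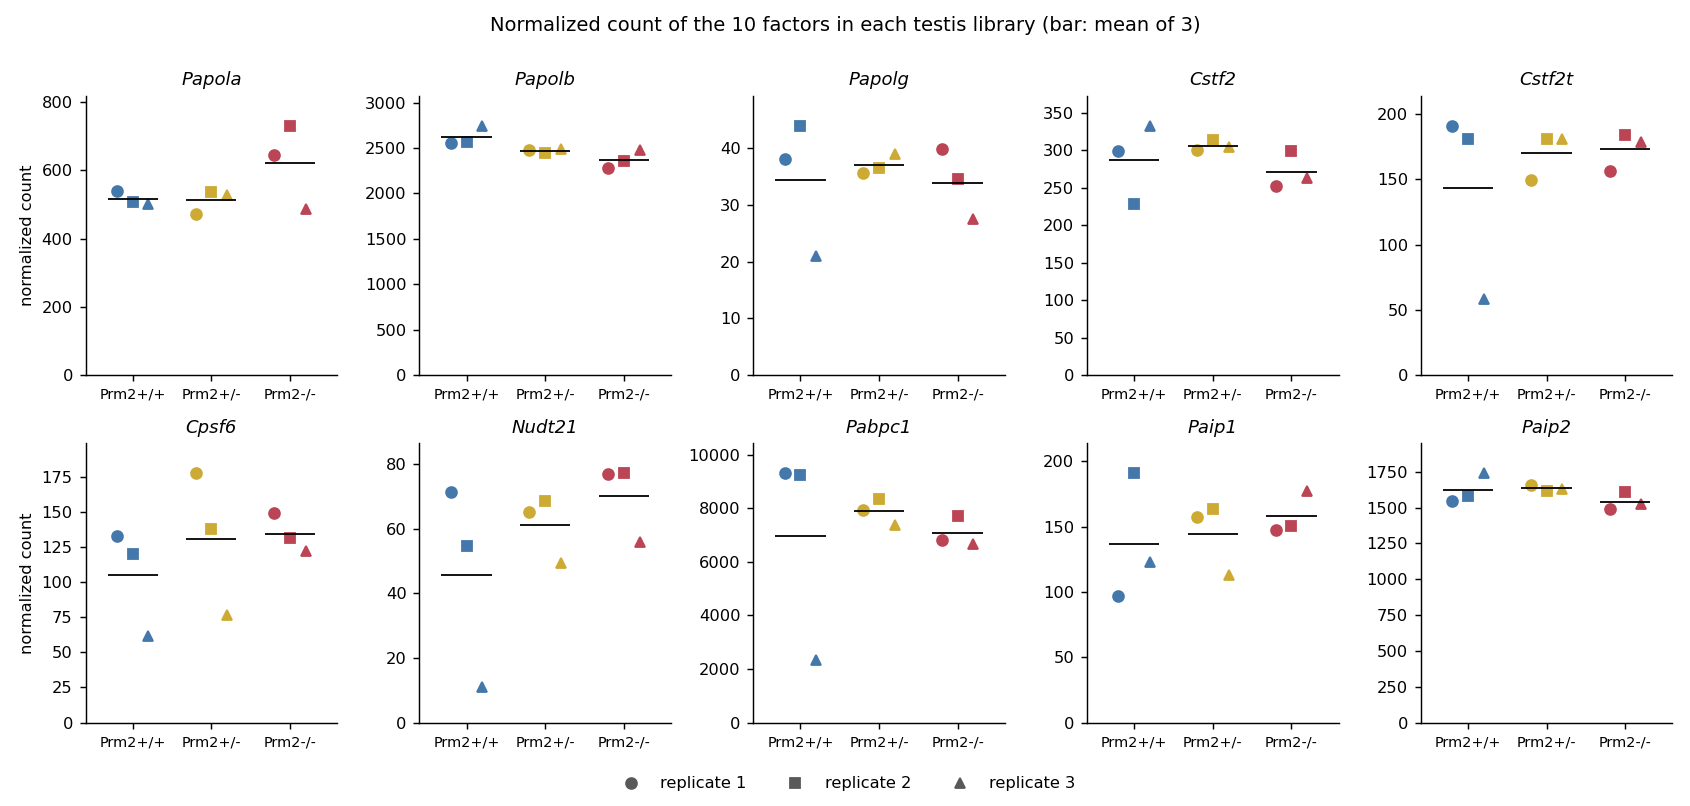
Normalized counts of the 10 genes in each library, 1 panel per gene with its own axis from 0, by genotype, with the mean of 3 libraries as a bar. Papolb and Paip2 lie close together in all 9 libraries, while replicate 3 of Prm2+/+ lies far below the others in Cstf2t, Nudt21 and Pabpc1.

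The intervals set what could have been seen. The 95% interval of the LFC lay within -0.5 and 0.5 for 3 members between Prm2-/- and Prm2+/+ (Papolb, Cstf2 and Paip2), for 4 between Prm2+/- and Prm2+/+ (these and Papola), and for 2 between Prm2-/- and Prm2+/- (Papolb and Paip2). For the other members the interval included a change beyond 0.5. Without replicate 3 of Prm2+/+ the numbers were 4 (with Cstf2t added), 5 (Papola, Papolb, Cstf2t, Pabpc1 and Paip2) and 5 (with Cstf2, Cstf2t and Pabpc1 added). The widest interval spanned 2.77 on the log2 scale with all libraries, in Nudt21, and 1.53 without that replicate, in Cpsf6.

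**Figure D3:**
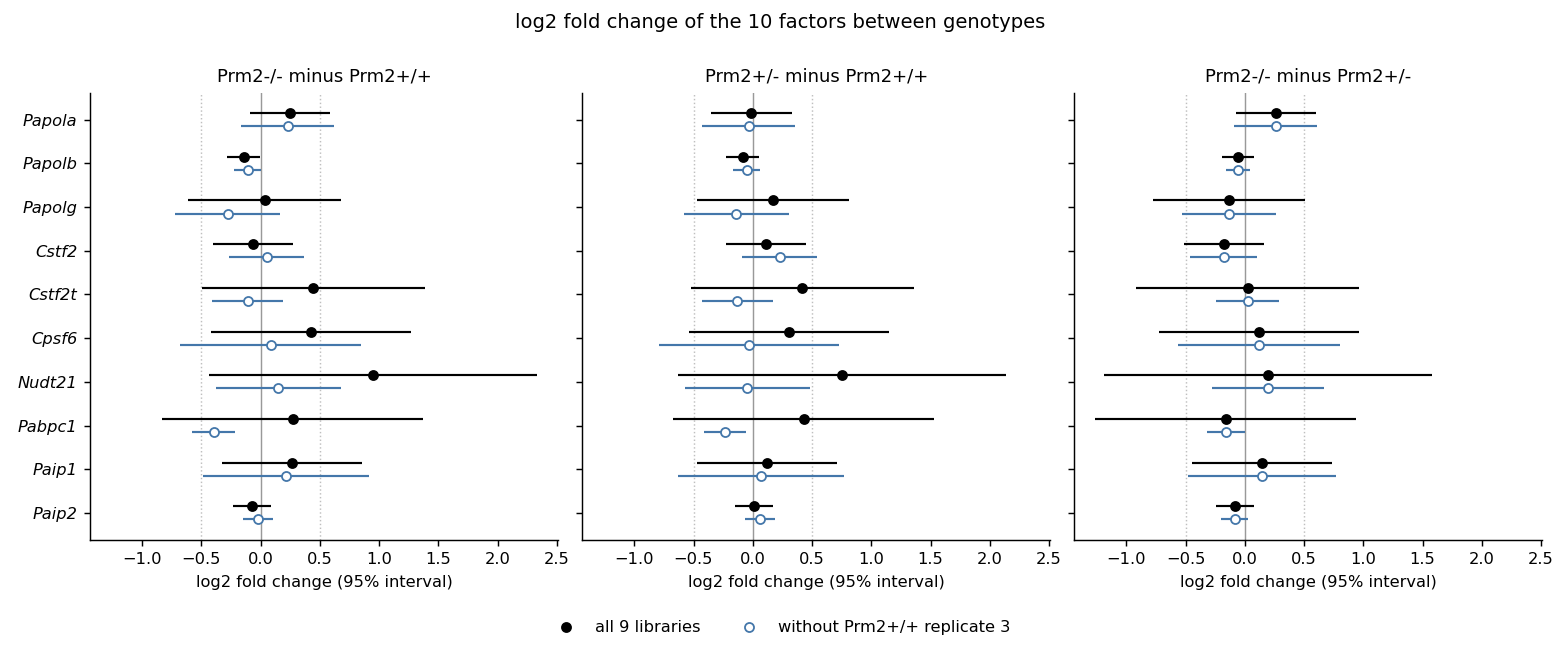
LFC of each gene with its 95% interval from limma for the 3 comparisons of genotypes, with all 9 libraries (filled) and without replicate 3 of Prm2+/+ (open); dotted lines mark -0.5 and 0.5. The intervals of Papolb and Paip2 are narrow in both fits, and Pabpc1 lies at 0.27 in the first panel with all libraries and at -0.40 without that replicate.

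Papolb, the poly(A) polymerase of male germ cells that acts in the cytoplasm of spermatids, had the highest level of the 3 polymerases, both by counts and per kilobase of exon. It had 2557, 2562 and 2745 normalized counts in Prm2+/+, 2473, 2447 and 2486 in Prm2+/-, and 2279, 2360.3 and 2480.5 in Prm2-/-. All Prm2+/+ libraries lay above all others, while Prm2+/- and Prm2-/- overlapped. Its LFC between Prm2-/- and Prm2+/+ was -0.14 (standard error (SE) 0.06, 95% interval -0.28 to -0.01, unadjusted p = 0.0436, adjusted p = 0.669 in limma). This was a level 0.905 times that of Prm2+/+. Without Prm2+/+ replicate 3, the library with the highest value, it was -0.11 (-0.23 to 0.007, unadjusted p = 0.0617), and the interval included 0. Between Prm2+/- and Prm2+/+ the LFC was -0.09 (-0.22 to 0.05). Libraries that lay entirely lower, as in Papolb, were found in 7.1% of all tested genes in the first of these comparisons and in 4.56% in the second. Less RNA per cell and fewer cells of a type cannot be told apart in whole testis.

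The spread of Papolb within genotypes was small. Its residual standard deviation was 0.049 on the log2 scale, and 0.235% of the tested genes had a smaller one. Radil, the gene whose intron holds it, had 39.8 to 89.3 normalized counts.

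Papola, the polymerase of all tissues, had 539, 508 and 501 normalized counts in Prm2+/+ and 473, 535 and 528 in Prm2+/-. In Prm2-/- it had 646, 731 and 487. Replicates 1 and 2 of Prm2-/- were above all other libraries, and replicate 3 was below all but Prm2+/- replicate 1. The LFC between Prm2-/- and Prm2+/+ was 0.25 (-0.09 to 0.59, adjusted p = 0.739 in limma). With each library left out in turn it ranged from 0.12 to 0.41. The highest was that without Prm2-/- replicate 3, the lowest library of its genotype (0.16 to 0.66, unadjusted p = 0.00592, adjusted p = 0.61 in limma).

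Papolg, a nuclear polymerase close to Papola, had the lowest level of the 10 members, both by counts and per kilobase. It had 38.0, 43.9 and 20.99 in Prm2+/+, 35.6, 36.5 and 38.9 in Prm2+/-, and 39.8, 34.5 and 27.5 in Prm2-/-. The genotypes overlapped, and the LFC between Prm2-/- and Prm2+/+ was 0.03 (-0.61 to 0.67). It was -0.02 in DESeq2, -0.01 in edgeR and -0.28 without Prm2+/+ replicate 3.

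Of the counts of these 3 polymerases together, Papolb held 81.6% to 84.0% in Prm2+/+, 81.1% to 83.0% in Prm2+/- and 75.5% to 82.8% in Prm2-/-. Within a library the scaling cancels, and the ratio of Papolb to Papola was 4.74, 5.04 and 5.47 in Prm2+/+, 5.22, 4.57 and 4.70 in Prm2+/-, and 3.52, 3.23 and 5.09 in Prm2-/-. Replicates 1 and 2 of Prm2-/- were lower than the other 7 libraries, while replicate 3 lay among them. The difference of the log2 ratio between Prm2-/- and Prm2+/+ was -0.39 (exact permutation test, two-sided, p = 0.3). With 3 libraries against 3 the smallest possible p is 0.1. Over the 3 genotypes together, the exact permutation test gave p = 0.161 (0.482 adjusted over 3 ratios). With each library left out in turn, this p ranged from 0.0143, without Prm2-/- replicate 3, to 0.386.

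**Figure D4:**
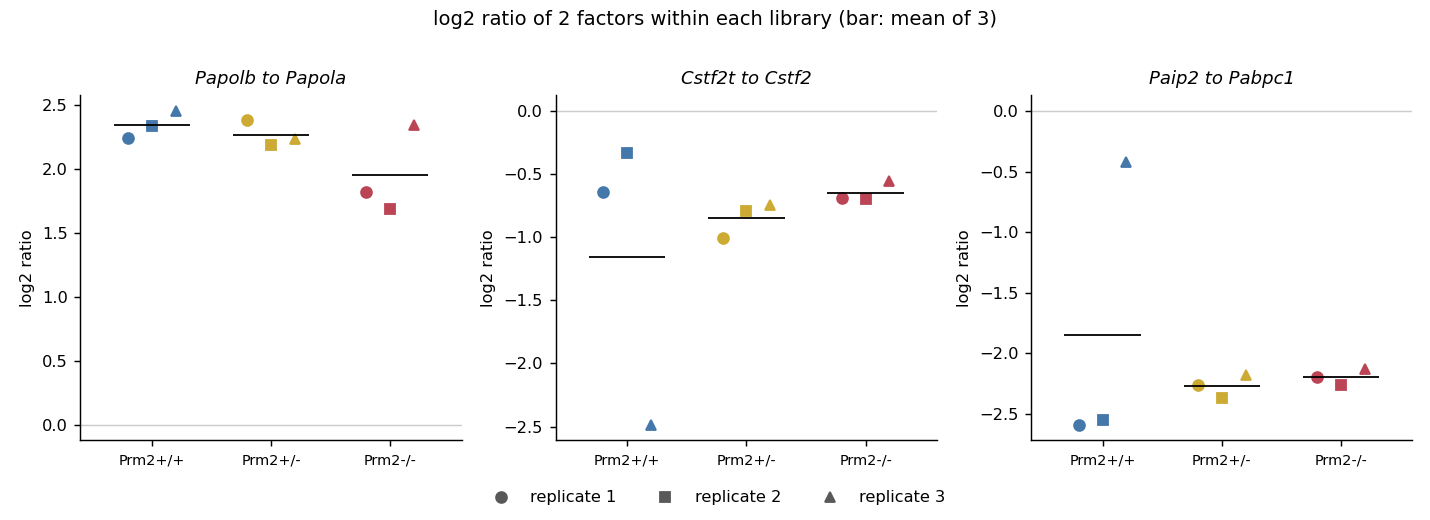
log2 ratio of normalized counts of a germ cell form to the general form (Papolb to Papola, Cstf2t to Cstf2) and of an inhibitor to its target (Paip2 to Pabpc1) in each library, by genotype, with the mean of 3 as a bar; the grey line marks 0, equal counts. Replicate 3 of Prm2+/+ lies at -2.49 in the second panel and at -0.42 in the third, away from the other 8 libraries.

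Cstf2 encodes CSTF64, the subunit of the cleavage stimulation factor that binds GU-rich RNA downstream of the cut, from the X chromosome. It had 299, 228 and 333 normalized counts in Prm2+/+, 301, 313 and 305 in Prm2+/-, and 253, 298 and 263 in Prm2-/-. The Prm2-/- libraries lay just below those of Prm2+/-, with 298 as the highest and 301 as the lowest value, while both overlapped Prm2+/+. The LFC between Prm2-/- and Prm2+/- was -0.18 (-0.52 to 0.16, adjusted p = 0.986 in limma), and 7.25% of the tested genes had Prm2-/- entirely lower in this comparison. Between Prm2-/- and Prm2+/+ it was -0.07 (-0.40 to 0.27), and 0.05 (-0.27 to 0.37) without Prm2+/+ replicate 3. Between Prm2+/- and Prm2+/+ it was 0.11 (-0.23 to 0.45), and 0.23 (-0.09 to 0.54) without that replicate.

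Cstf2t is the autosomal form, used in meiotic and haploid germ cells in which the X chromosome is silenced. It had 191, 181 and 58.6 normalized counts in Prm2+/+, 149, 181 and 181 in Prm2+/-, and 157, 184 and 178 in Prm2-/-. Only replicate 3 of Prm2+/+ was outside 149 to 191. The LFC between Prm2-/- and Prm2+/+ was 0.44 (-0.50 to 1.38) with this library (0.27 in both edgeR and DESeq2) and -0.11 (-0.41 to 0.19) without it. Prkg1, the gene on the opposite strand around it, had 351, 34.3 and 5.52 in Prm2+/+ and 397 to 444 in the other 6 libraries, so it was low in 1 library in which Cstf2t was not.

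The ratio of Cstf2t to Cstf2 was 0.639, 0.794 and 0.179 in Prm2+/+, 0.498 to 0.596 in Prm2+/-, and 0.617 to 0.680 in Prm2-/-. Prm2-/- lay above Prm2+/- in each library, with a difference of 0.20 in log2 ratio (exact permutation test, two-sided, p = 0.1, the smallest possible, and 0.9 adjusted over 9 comparisons of ratios). Over the 3 genotypes the exact permutation p was 0.893, and 0.0429 without Prm2+/+ replicate 3. The difference between Prm2-/- and Prm2+/+ was 0.51 with that replicate and -0.16 without it.

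Nudt21 encodes CFIm25, which binds UGUA and takes part in the choice of the cleavage site, and Cpsf6 encodes its partner CFIm68. Nudt21 had 71.3, 54.7 and 11.05 normalized counts in Prm2+/+, 65.3, 68.5 and 49.5 in Prm2+/-, and 77.0, 77.1 and 56.0 in Prm2-/-. The value of Prm2+/+ replicate 3 rested on 10 counts (95% Poisson interval 4.80 to 18.4, counting error only), which lay below every other library. The LFC between Prm2-/- and Prm2+/+ was 0.95 (-0.44 to 2.33) with this library (0.62 in edgeR and 0.61 in DESeq2) and 0.15 (-0.38 to 0.68) without it.

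Cpsf6 had 133, 120.0 and 61.9 normalized counts in Prm2+/+, 178, 138 and 76.9 in Prm2+/-, and 149, 132 and 122 in Prm2-/-. The low values were those of replicate 3 in Prm2+/+ and in Prm2+/-, and the genotypes overlapped. Its LFC between Prm2-/- and Prm2+/+ was 0.43 (-0.42 to 1.27), and 0.09 (-0.68 to 0.85) without Prm2+/+ replicate 3. The samples of 1 replicate number did not deviate together over all genes, a check that cannot speak for a single gene. Whether the low Cpsf6 values of replicate 3 have a shared source was not tested.

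Pabpc1, the cytoplasmic protein that coats poly(A) tails and binds the translation initiation factor eIF4G, had the highest mean level of the 10 members, both by counts and per kilobase. It had 9302, 9239.6 and 2324 normalized counts in Prm2+/+, 7929.9, 8342 and 7370.3 in Prm2+/-, and 6823, 7700.0 and 6659 in Prm2-/-. Replicates 1 and 2 of Prm2+/+ were the highest of the 9 libraries, and replicate 3 was by far the lowest. With all libraries the LFC between Prm2-/- and Prm2+/+ was 0.27 (SE 0.48, 95% interval -0.83 to 1.37, adjusted p = 0.893 in limma). On the same 9 libraries it was 0.0276 in edgeR and 0.0223 in DESeq2.

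Without Prm2+/+ replicate 3 the direction of Pabpc1 turned. The LFC between Prm2-/- and Prm2+/+ was then -0.40 (SE 0.08, -0.58 to -0.22, unadjusted p = 0.00125, adjusted p = 0.19 in limma), a level 0.76 times that of the other 2 Prm2+/+ libraries. Between Prm2+/- and Prm2+/+ it was -0.24 (-0.42 to -0.06, unadjusted p = 0.0171, adjusted p = 0.979). Both comparisons share these 2 Prm2+/+ libraries, and neither passed the threshold, which 0.295% and 0.235% of all tested genes passed without the replicate. Of the tested genes, 8.4% then had an unadjusted p under 0.05 in the first comparison and 4.19% in the second. Prm2-/- and Prm2+/- each lay entirely below these 2 libraries, as in 14.4% of tested genes in the first comparison and 9.46% in the second. The residual standard deviation of Pabpc1 was 0.67 on the log2 scale with the replicate and 0.091 without it, while the median over all tested genes went from 0.30 to 0.24.

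Paip2, an inhibitor that displaces PABPC1 from poly(A) and from its translation partners, had 1546, 1579.6 and 1739 normalized counts in Prm2+/+. It had 1659, 1617 and 1628 in Prm2+/- and 1487, 1609 and 1525 in Prm2-/-. Prm2-/- lay below Prm2+/- in each library, as in 7.25% of all tested genes, and overlapped Prm2+/+. The LFC was -0.09 (-0.25 to 0.07) between Prm2-/- and Prm2+/-, and -0.07 (-0.23 to 0.09) between Prm2-/- and Prm2+/+. Without Prm2+/+ replicate 3, which holds the highest value, the latter was -0.02 (-0.15 to 0.11). Its residual standard deviation was 0.063 on the log2 scale, and 0.799% of the tested genes had a smaller one.

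Paip1, which joins PABPC1 to the initiation factor eIF4A and favours translation, had 96.9, 191 and 123 normalized counts in Prm2+/+. It had 157, 164 and 113 in Prm2+/- and 148, 150.2 and 177 in Prm2-/-. The lowest and the highest of the 9 libraries were both Prm2+/+, and the LFC between Prm2-/- and Prm2+/+ was 0.26 (-0.33 to 0.85). With each library left out in turn it ranged from 0.0449 to 0.53. The highest was that without Prm2+/+ replicate 2, which holds the highest value (0.04 to 1.02, unadjusted p = 0.037, adjusted p = 0.554 in limma).

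The ratio of Paip2 to Pabpc1 was 0.166, 0.171 and 0.749 in Prm2+/+, 0.194 to 0.221 in Prm2+/- and 0.209 to 0.229 in Prm2-/-. Replicates 1 and 2 of Prm2+/+ were the lowest of the 9 libraries and replicate 3 the highest. The log2 ratio differed between Prm2-/- and Prm2+/+ by -0.34 (exact permutation test, two-sided, p = 1.0), and by 0.37 without replicate 3, where 3 libraries stand against 2 and the exact p of 0.1 is the smallest possible. Over the 3 genotypes the exact permutation p was 0.982 with the replicate and 0.0179 without it.

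Levels between genes were set side by side per kilobase of annotated exon, although reads at the 3′ end do not grow with transcript length. On this scale the order by mean over the 9 libraries was Pabpc1 (1116 normalized counts per kilobase, standard deviation (SD) 319), Papolb (587, SD 31.0), Paip2 (452, SD 21.3), Papola (83.3, SD 12.8), Paip1 (42.4, SD 8.84), Cstf2t (38.3, SD 9.73), Cstf2 (31.4, SD 3.60), Cpsf6 (11.8, SD 3.36), Nudt21 (11.01, SD 3.82) and Papolg (6.39, SD 1.26). The ranges of Papolb, Paip2, Papola and Paip1 did not overlap between neighbours, nor did those of Cstf2 and Cpsf6. Pabpc1 overlapped Papolb only through Prm2+/+ replicate 3, at 355 per kilobase. Paip1, Cstf2t and Cstf2 overlapped one another in order, as did Cpsf6, Nudt21 and Papolg. By plain counts the order of 3 members was the reverse, with Cstf2 (288) above Cstf2t (162) and Paip1 (147), so their order depends on the length used.

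The other genes of the pathway were taken from a list of 71, all present in the table, of which 67 passed the filter. limma called 0 of the 67 in each of the 3 comparisons of genotypes, beside 0.181%, 0.0806% and 0.175% of all tested genes. At an unadjusted p under 0.05 it had 6 between Prm2-/- and Prm2+/+, 4 between Prm2+/- and Prm2+/+, and 4 between Prm2-/- and Prm2+/-, beside 7.33%, 4.24% and 5.44% of all tested genes. These are 8.96%, 5.97% and 5.97% of the list. edgeR called 0 in each comparison, and DESeq2 called 1 in each, Papd5 against Prm2+/+ and Cnot6 between Prm2-/- and Prm2+/-. Over all tested genes, the shares called were 0.161%, 0.0671% and 0.154% in edgeR and 0.88%, 0.396% and 0.739% in DESeq2. The median LFC of the list between Prm2-/- and Prm2+/+ was 0.005, beside 0.02 over all tested genes.

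Papd5, a noncanonical poly(A) polymerase, had the largest LFC of the list between Prm2-/- and Prm2+/+. It had 13.3, 11.8 and 11.05 normalized counts in Prm2+/+, 152, 15.5 and 144 in Prm2+/-, and 81.5, 161 and 143 in Prm2-/-. All Prm2+/+ libraries and replicate 2 of Prm2+/- were at a low level, and the other 5 libraries at a high level. All Prm2+/+ libraries lay below the others. Among all tested genes, 6.92% had Prm2-/- entirely higher than Prm2+/+ and 4.88% had Prm2+/- entirely higher. The LFC between Prm2-/- and Prm2+/+ was 3.26 (SE 0.79, 1.43 to 5.08, unadjusted p = 0.00336, adjusted p = 0.392 in limma). The adjusted p was 0.0122 when only the 6 libraries compared were fitted, 0.00166 in DESeq2, 0.355 in edgeR, and 0.00509 without Prm2+/- replicate 2.

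Such steps between libraries were common. Of the 67 pathway genes, 8 (11.9%) spanned more than 3 on the log2 scale over the 9 libraries, beside 15.3% of all tested genes, and 0 of the 10 members did. Cpeb2, a translational regulator that binds the cytoplasmic polyadenylation element, had 1433, 40.7 and 36.5 normalized counts in Prm2+/+. It had 60.3, 47.5 and 1429 in Prm2+/- and 33.5, 1454 and 1420.3 in Prm2-/-. Eif4g2, a translation factor related to eIF4G, had 327, 2535 and 2367 in Prm2+/+, 2412, 306 and 2572 in Prm2+/-, and 278, 249 and 1961 in Prm2-/-. In both genes the high and the low level occurred in every genotype.

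**Figure D5:**
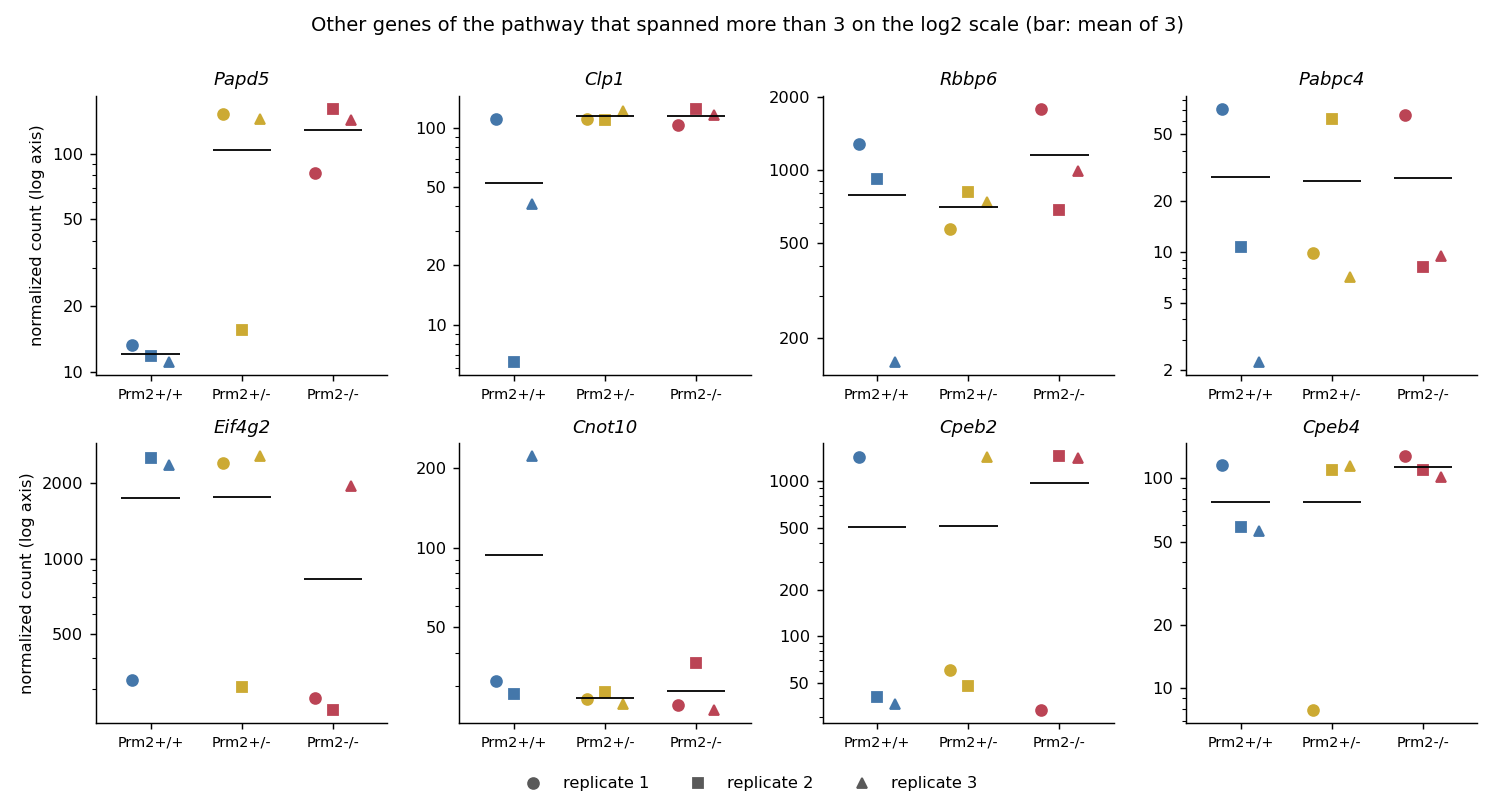
Normalized counts (log axis) of the 8 tested pathway genes that spanned more than 3 on the log2 scale, by genotype and library, with the mean of 3 as a bar. Papd5 is low in the 3 Prm2+/+ libraries and in Prm2+/- replicate 2, whereas high and low libraries of Pabpc4, Eif4g2 and Cpeb2 are found in each genotype.

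Pabpc4, another cytoplasmic poly(A)-binding protein, had 71.3, 62.1 and 65.2 in 1 library of each genotype and 2.21 to 10.7 in the other 6. Clp1, a kinase subunit of cleavage factor II, had 6.43 in Prm2+/+ replicate 2, 40.9 in replicate 3 and 104 to 126 in the other 7 libraries. Rbbp6, a subunit of the cleavage complex, had 159 in Prm2+/+ replicate 3 and 568 to 1799 elsewhere. Cnot10, a subunit of the CCR4-NOT deadenylase complex, was high in Prm2+/+ replicate 3 alone, with 222 beside 24.3 to 36.5. Cpeb4 had 7.91 in Prm2+/- replicate 1 and 56.4 to 128 elsewhere. Pnldc1, an exonuclease that was not tested, had 5.43 and 8.45 in Prm2-/- replicates 1 and 3 and 0 in the other 7 libraries.

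Btg3, an antiproliferative protein that binds deadenylases, had 93.1, 86.8 and 97.2 normalized counts in Prm2+/+, 73.2, 55.7 and 76.9 in Prm2+/-, and 59.8, 61.9 and 54.9 in Prm2-/-. All Prm2+/+ libraries lay above the others, where 7.1% of all tested genes had Prm2-/- entirely lower than Prm2+/+ and 4.56% had Prm2+/- entirely lower. Its LFC between Prm2-/- and Prm2+/+ was -0.64 (-0.99 to -0.30, unadjusted p = 0.00269, adjusted p = 0.38 in limma). Cnot6, a catalytic deadenylase subunit, had 122, 128 and 69.6 in Prm2+/+, 205, 233 and 172 in Prm2+/-, and 102, 114 and 90.8 in Prm2-/-. It was highest in the 3 Prm2+/- libraries, with an LFC of 0.97 (0.41 to 1.53, adjusted p = 0.842) between Prm2+/- and Prm2+/+. Between Prm2-/- and Prm2+/- it was -0.98 (-1.54 to -0.42, adjusted p = 0.612 in limma and 0.0402 in DESeq2). Of all tested genes, 4.88% had Prm2+/- entirely higher than Prm2+/+, and 7.25% had Prm2-/- entirely lower than Prm2+/-.

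Of the poly(A)-binding proteins, Pabpc2, a testis form whose coding sequence was 83.2% identical to that of Pabpc1, had 2472 to 3691 normalized counts and overlapped between genotypes. Nuclear Pabpn1 had 2732, 2529 and 1537 in Prm2+/+, 2676, 2862 and 3246 in Prm2+/-, and 3248, 3281 and 3585 in Prm2-/-. Prm2-/- lay just above the rest, where 6.92% of all tested genes had Prm2-/- entirely higher than Prm2+/+ and 7.47% entirely higher than Prm2+/-. Its LFC between Prm2-/- and Prm2+/+ was 0.62 (0.15 to 1.08, unadjusted p = 0.0158, adjusted p = 0.587 in limma), and 0.36 (0.14 to 0.57) without Prm2+/+ replicate 3.

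Among the most abundant genes in the remaining roles was Fam46c, a cytoplasmic poly(A) polymerase. It had 2225 to 2469 normalized counts in Prm2+/+ and Prm2+/- and 2045 to 2163 in Prm2-/-, so that Prm2-/- lay below the other 6 libraries. Of all tested genes, 7.1% had Prm2-/- entirely lower than Prm2+/+ and 7.25% entirely lower than Prm2+/-. The LFC of Fam46c between Prm2-/- and Prm2+/- was -0.19 (-0.33 to -0.04, adjusted p = 0.87 in limma). Cnot1, the scaffold of CCR4-NOT, had 280.3, 302 and 316 in Prm2+/+, 242, 253 and 236 in Prm2+/-, and 445, 265 and 421 in Prm2-/-. Prm2+/- lay below both other genotypes, with an LFC of 0.59 (0.16 to 1.02, adjusted p = 0.869 in limma) between Prm2-/- and Prm2+/-. Of all tested genes, 4.56% had Prm2+/- entirely lower than Prm2+/+, and 7.47% had Prm2-/- entirely higher than Prm2+/-. Cstf1 and Cstf3, the partners of Cstf2 in the cleavage stimulation factor, had 259 to 356 and 153 to 202, Cpsf1 236 to 305, Pcf11 225 to 285, and Tut1 136 to 220.2. Btg1 had 588 to 717 and Cpeb3 68.5 to 182. Eif4g3, an eIF4G that binds poly(A)-binding protein, had 1008 in Prm2+/+ replicate 3 and 1665 to 2148 in the other 8 libraries.

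Low values in Prm2+/+ replicate 3 were also found among these genes. Of the 67 pathway genes, 8 (11.9%) lay there more than 1 on the log2 scale below the median of the other 8 libraries, beside 14.5% of all tested genes. They were Cpsf4, Rbbp6, Clp1, Papd5, Pabpc4, Larp4b, Cnot3 and Cpeb2, of which Cpsf4, Larp4b and Cnot3 were named after their values were seen.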

How the data were processed

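Testis RNA of 9 males was sequenced with QuantSeq (50-base reads). Reads were trimmed with Trim Galore 0.4.5, mapped to GRCm38 (Ensembl release 89) with HISAT2 2.1, and quantified with StringTie 1.3.3 by the authors, who removed pseudogenes. The deposited table holds normalized counts (a signal unit), that is, gene counts divided by DESeq2 size factors. The script of the StringTie package that makes such counts works from coverage and a read length, so 1 count may not equal 1 sequenced read. All values (100%) were whole multiples (tolerance 0.01) of 1 step per library, which gave back the counts. For Prm2+/- replicate 1 the step was close to 1, which makes the evidence weaker for that library.

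edgeR's filterByExpr kept 14893 genes. limma (lmFit and eBayes with trend) was fitted to log2(value + 1) of all 9 libraries with genotype as the only term. Fold changes on this scale understate those of low genes. Ratios were tested by exact permutation over libraries, as log2((a + 1)/(b + 1)). Intervals are 95%. Poisson intervals cover counting error only.

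The members, the pathway list and the tests were chosen with earlier results of these data known. Of the pathway list, the genes named are those called, those with an unadjusted p under 0.01, those spanning more than 3 on the log2 scale, and the 2 most abundant per role. The limma step was checked on simulated data. The planted changes were 3 on the log2 scale either way, larger than any LFC of the members. The check does not show whether smaller changes would be called. Of 55 marker genes, 53 were in the table. Positions and sequences come from GENCODE M21 (GRCm38). Counting by strand is not stated, so overlapping genes may share reads. No protein sequence was used here. Versions were limma 3.58.1, DESeq2 1.42.0 and edgeR 4.0.16 in R 4.3.3, with pandas 2.3.3, numpy 2.4.6, scipy 1.17.1, matplotlib 3.10.9 and Biopython 1.88 in Python 3.11.15.

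The alternatives covered library scaling (TMM factors), the pseudocount (0.5 or 5), the filter on low values, the libraries fitted, edgeR's quasi-likelihood test, DESeq2, a replicate block, and leaving out each library in turn.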

Additional observations from a re-analysis of the deposited data

How the results depend on the processing

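No member was called (0) in any comparison under any of the 18 alternatives, and the adjusted p of the members lay between 0.19 and 1. Of the pathway genes, 1 was called between Prm2-/- and Prm2+/+ with only the 6 libraries compared and in DESeq2 (Papd5 in both), and 0 to 1 with each library left out (Papd5 without Prm2+/- replicate 2, Cnot3 without Prm2+/+ replicate 1). Between Prm2+/- and Prm2+/+ it was 1 in DESeq2 and 0 to 1 with each library left out (Papd5), and between Prm2-/- and Prm2+/- 1 in DESeq2 (Cnot6). Over all tested genes DESeq2 called 131, 59 and 110 in the 3 comparisons, beside 27, 12 and 26 in limma. Without Prm2+/+ replicate 3 limma called 44, 35 and 48. The cause was not tested.

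The sign of the LFC of Papolg between Prm2-/- and Prm2+/+ turned in edgeR (-0.00938) and in DESeq2 (-0.0153). With each library left out, the sign also turned for the following ranges. Between Prm2-/- and Prm2+/+ these were -0.28 to 0.24 (Papolg), -0.22 to 0.0499 (Cstf2), -0.11 to 0.74 (Cstf2t) and -0.40 to 0.60 (Pabpc1). Between Prm2+/- and Prm2+/+ they were -0.0448 to 0.0449 (Papola), -0.14 to 0.37 (Papolg), -0.0432 to 0.23 (Cstf2), -0.13 to 0.71 (Cstf2t), -0.0312 to 0.65 (Cpsf6), -0.0446 to 1.25 (Nudt21), -0.24 to 0.76 (Pabpc1), -0.10 to 0.39 (Paip1) and -0.0203 to 0.0646 (Paip2). Between Prm2-/- and Prm2+/- they were -0.26 to 0.0039 (Papolg), -0.0688 to 0.0924 (Cstf2t), -0.22 to 0.38 (Cpsf6) and -0.0223 to 0.24 (Paip1). Papolb kept its sign in each comparison. Between Prm2+/- and Prm2+/+, edgeR and DESeq2 gave smaller LFCs than limma on the same libraries for Pabpc1 (0.18 and 0.18, beside 0.43), Nudt21 (0.41 and 0.41, beside 0.75) and Cstf2t (0.25 and 0.24, beside 0.42).

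For the ratios, the exact permutation p over the 3 genotypes ranged with each library left out from 0.0143 to 0.386 (Papolb to Papola), 0.0429 to 0.971 (Cstf2t to Cstf2) and 0.0179 to 0.993 (Paip2 to Pabpc1). The log2 differences against Prm2+/+ ranged, for Cstf2t to Cstf2, from -0.16 to 0.92 in Prm2-/- and from -0.36 to 0.72 in Prm2+/-. For Paip2 to Pabpc1 they ranged from -0.71 to 0.37 in Prm2-/- and from -0.78 to 0.30 in Prm2+/-.

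Samples with the same replicate number did not deviate together (correlations -0.0365 to 0.0423, beside -0.0376 to 0.0456 for different numbers). The numbers were not used as pairs because the study methods use none. With the replicate block, 0 members and 0 pathway genes were called in each comparison, and the LFC of Papolb between Prm2-/- and Prm2+/+ stayed at -0.14 (adjusted p = 0.66 in limma).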
